A study of Saccharomyces cerevisiae with 12 samples.

Results

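The transcripts that encode the proteins of the cytosolic ribosome were examined in WT and *sus1*Δ cells of *Saccharomyces cerevisiae*, without and with the cell wall dye Congo red (CR). Members were taken by symbol from the annotation of the array platform, as RPL or RPS followed by a number and an optional A or B, together with the stalk genes *RPP0*, *RPP1A*, *RPP1B*, *RPP2A* and *RPP2B*. The gene *RPP1*, which encodes a subunit of ribonuclease P, shares the prefix and was left out. Of the 5449 genes tested, 127 met this rule, with 75 in the large subunit, stalk included, and 52 in the small subunit. A further 10 genes that match the rule in the R64 annotation were not analysed here.

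The WT strain was BY4741, a haploid laboratory strain of mating type a that carries *ura3*Δ*0*, *met15*Δ*0*, *leu2*Δ*0* and *his3*Δ*1*. The *sus1*Δ strain was the same background with *SUS1* replaced by *KanMX4*, so all 4 groups shared the auxotrophic deletions. Cultures grown in YPD were divided into a part left untreated and a part that received CR at 30 μg/mL, and 3 arrays were hybridized for each of the 4 groups. The sample titles and the methods give 3 h of treatment, whereas the design deposited with the series gives 2 h. The number of *sus1*Δ clones behind the cultures is not given in the sources used here.

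A ribosome is assembled from ribosomal RNA and one copy of most of these proteins, and in growing yeast their genes are among the most strongly transcribed of the genome. After an ancient duplication of the genome many of them were kept as A and B copies that encode the same or nearly the same protein. Their transcription depends on Rap1, Fhl1 with its coactivator Ifh1, Sfp1 and Hmo1, and it follows nutrient signals through TORC1 and protein kinase A and falls in many stresses. Sus1 is a small protein shared by the deubiquitinating module of the SAGA coactivator and by TREX-2, which couples transcription with mRNA export.

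The values were log2 signals, so a difference of 1 stands for a 2-fold ratio. A member was called when the adjusted p of its difference was under 0.05, with limma and the Benjamini-Hochberg method over all 5449 genes. The *SUS1* probe set read 8.31 in untreated WT and 2.83 in untreated *sus1*Δ cells, which fits the labels. The 6 a-mating genes read 9.01 to 13.1 on the 12 arrays, and *LEU2*, *MET17* and *URA3*, which the strains lack, read 2.57 to 4.44. *HIS3*, which the strains lack only in part (*his3*Δ*1*), read 9.48 to 10.17. Other markers were less clear. Of the alpha-mating genes, *MF(ALPHA)1* read 3.03 to 4.61 and *MF(ALPHA)2* 4.89 to 5.76, but *STE3* read 5.17 to 6.98 and *SAG1* 8.13 to 8.57. Without CR the mutant exceeded WT in *STE3* by 1.47 (adjusted p = 0.000118). The cause was not tested. The limit below which the dimmest 5% of genes fell was 4.53 to 4.80 on the WT arrays and 5.36 to 5.49 on the *sus1*Δ arrays, so the floor of the signals differed between the strains. RNA was taken from whole cultures, where fewer cells of a kind and less RNA per cell cannot be told apart.

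Ribosomal protein genes were among the brightest on the arrays. Their median signal, averaged over the 12 arrays, was 13.20 against 9.16 for all genes, and 110 of the 200 brightest genes were members. In all, 90 members had a mean signal over 13, and 8 were under 12. The highest signal of any gene on an array was 14.18 to 14.43, so most members lay close to the top of the range. The brightest member was *RPL2A* (YFR031C-A, 13.96) and the dimmest were *RPL41A* (7.60), whose product is the smallest protein of the ribosome, *RPL15B* (9.90) and *RPS9A* (11.01). Replicates lay close together, with a median SD of 0.0689 and 0.0691 in untreated and CR-treated WT cells and of 0.0490 and 0.0352 in untreated and CR-treated *sus1*Δ cells. The same medians over all genes were 0.148, 0.148, 0.0712 and 0.0784.

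**Figure D1:**
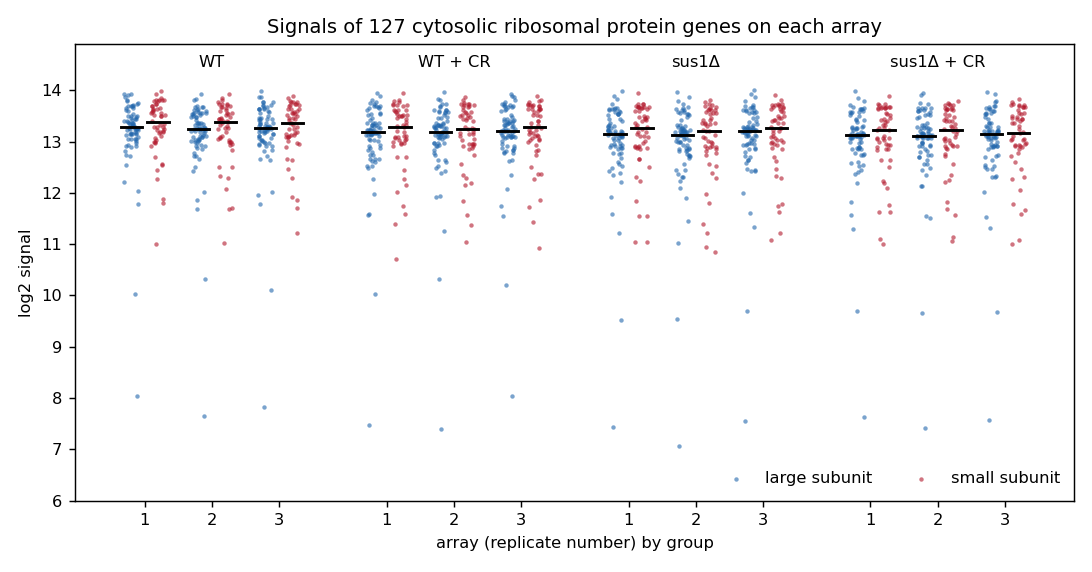
Log2 signal (vertical axis) of each of the 127 genes on the 12 arrays, grouped by strain and treatment on the horizontal axis, with large subunit genes in blue, small subunit genes in red and black bars at the median of each subunit. Nearly all points lie between 12 and 14 on every array, and the medians of both subunits are highest on the 3 untreated WT arrays.

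The median signal of the 127 genes was 13.30, 13.27 and 13.29 on the 3 untreated WT arrays and 13.20, 13.19 and 13.22 after CR. In *sus1*Δ cells it was 13.16, 13.12 and 13.22 without CR and 13.13, 13.13 and 13.15 with CR. The untreated WT arrays were therefore above the other 9, by small amounts. Among the dimmest 32 members the mean of the array medians was 12.74 ± 0.0512 (SD, n = 3) in untreated WT, 12.57 ± 0.0962 in CR-treated WT, 12.42 ± 0.0720 in untreated *sus1*Δ and 12.43 ± 0.0335 in CR-treated *sus1*Δ cells.

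The comparison of untreated *sus1*Δ with untreated WT cells addresses how the loss of Sus1 alters basal expression. In it 28 of the 127 genes were lower in the mutant (22.0%) and 0 were higher, whereas 7.08% of all genes were called lower and 14.3% higher. The call took in 17 of 75 large subunit genes and 11 of 52 small subunit genes. The median difference was -0.12 for the large and -0.10 for the small subunit, against +0.03 over all genes. Differences ranged from -0.69 to 0.08 on the log2 scale, and 0 members reached a 2-fold ratio. A ratio of 0.5 or less with the call was seen in 0.0734% and a ratio of 2 or more in 2.46% of all genes. At an unadjusted p under 0.05, 41 members (32.3%) were lower and 0 higher, against 12.5% and 22.6% of all genes. For 69 members (54.3%) all 3 mutant arrays lay below all 3 WT arrays, which held for 16.4% of all genes.

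**Figure D2:**
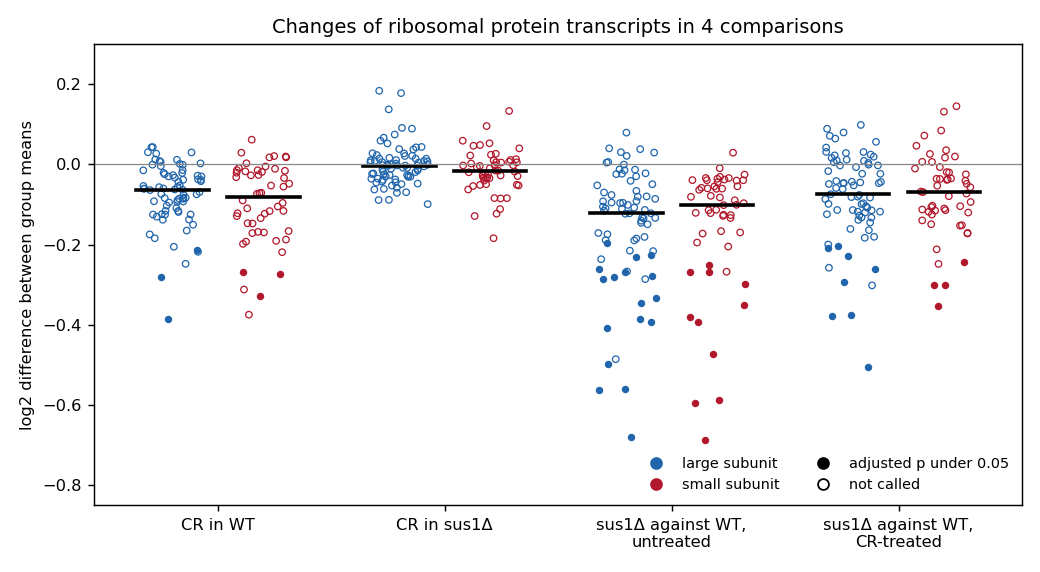
Difference between group means (log2, vertical axis) of each member in the 4 comparisons of groups, with the large subunit in blue and the small subunit in red, filled points for adjusted p under 0.05 and black bars at the medians. The 28 filled points of the untreated strain comparison reach down to -0.69, and the comparison of CR in *sus1*Δ cells has no filled point.

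The largest difference was that of *RPS10B* (YMR230W), which encodes a protein of the head of the small subunit. It read 11.80, 11.68 and 11.70 in untreated WT and 11.05, 10.85 and 11.22 in untreated *sus1*Δ cells, a difference of -0.69 (SE 0.0876, adjusted p = 0.000466) or a ratio of 0.622. Its values after CR were 11.39, 11.37 and 11.44 in WT and 11.10, 11.13 and 11.08 in *sus1*Δ cells. Every mutant array thus lay below every WT array of the same treatment, and the WT arrays with CR lay between both. Its paralog *RPS10A* (YOR293W) was also lower, by 0.47 (SE 0.0996, adjusted p = 0.00745), although the probe set chosen for it can bind related transcripts. A dimmer probe set specific to *RPS10A* differed by -0.64 (SE 0.130, adjusted p = 0.00604 over all named probe sets).

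*RPL9B* (YNL067W) encodes a large subunit protein that lies near the base of the stalk. It read 11.79, 11.86 and 11.95 in untreated WT and 11.21, 11.02 and 11.34 in untreated *sus1*Δ cells, a difference of -0.68 (SE 0.111, adjusted p = 0.00197). With CR the values were 11.56, 11.93 and 11.74 in WT and 11.29, 11.50 and 11.32 in *sus1*Δ cells. The strains stayed apart under both conditions, while the values with and without CR overlapped within each strain.

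*RPS22B* (YLR367W), for a small subunit protein that binds rRNA, read 12.44, 12.50 and 12.29 in untreated WT and 11.85, 11.80 and 11.79 in untreated *sus1*Δ cells. The difference was -0.59 (SE 0.0779, adjusted p = 0.000544), with less spread in the mutant than in WT. *RPS19A* (YOL121C) encodes a protein needed for the maturation of the small subunit, and its human counterpart is mutated in Diamond-Blackfan anemia. Its signals were 12.26, 12.07 and 11.92 in WT and 11.54, 11.22 and 11.74 in *sus1*Δ cells, a difference of -0.59 (SE 0.130, adjusted p = 0.00958). This gene had one of the widest spreads among the members named, although its groups did not overlap.

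*RPL15B* (YMR121C), a large subunit gene with a dim probe set, read 10.03, 10.32 and 10.10 in untreated WT and 9.52, 9.54 and 9.70 in untreated *sus1*Δ cells. The difference was -0.56 (SE 0.0966, adjusted p = 0.00260). *RPL13A* (YDL082W), also of the large subunit, read 12.72, 12.91 and 12.82 in WT and 12.21, 12.30 and 12.45 in *sus1*Δ cells, a difference of -0.50 (SE 0.0862, adjusted p = 0.00274). Both genes kept the groups apart on all arrays. Single-copy members called in this comparison were *RPL39* (-0.56, adjusted p = 0.0205), for a small protein at the exit of the peptide tunnel, and *RPL38* (-0.28, adjusted p = 0.0255), which were picked after their values were seen.

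**Figure D3:**
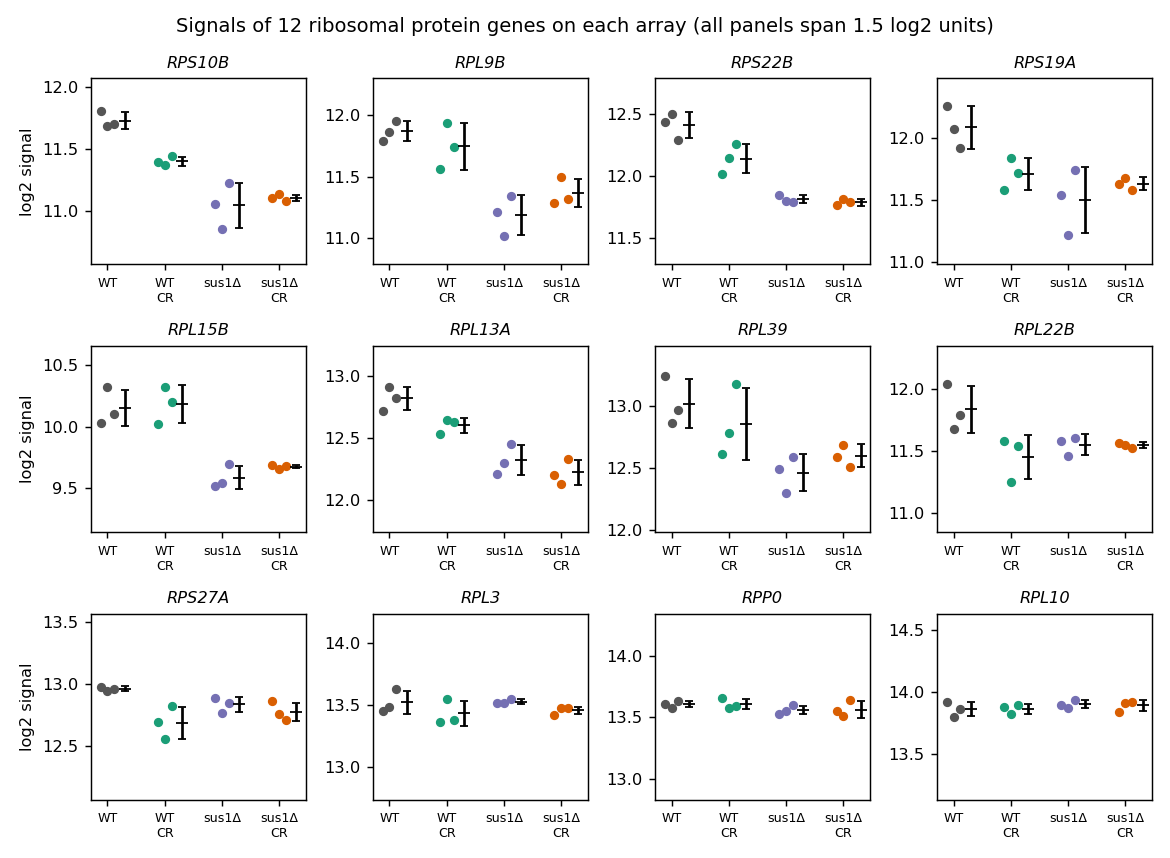
Log2 signal of 12 members on each array (colored points, 3 per group) with the mean and SD of each group beside them (black), every panel spanning 1.5 log2 units. Without CR the first 7 genes lie lower in *sus1*Δ than in WT cells, *RPL22B* and *RPS27A* lie lower in WT cells with CR, and *RPL3*, *RPP0* and *RPL10* show overlapping groups.

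The stalk recruits the translation factors that hydrolyze GTP, and 0 of its 5 genes were called in any comparison. *RPP0* (YLR340W), its base, read 13.61, 13.58 and 13.63 in untreated WT and 13.53, 13.55 and 13.60 in untreated *sus1*Δ cells, which overlapped. The differences of the 5 stalk genes in untreated cells ranged from -0.08 for *RPP2A* to 0.03 for *RPP2B*. The median of the 18 single-copy genes was -0.08, with 2 called lower (11.1%). That of the 109 duplicated genes was -0.12, with 26 called lower (23.9%), beside 7.08% of all genes. The probe sets of the single-copy genes were brighter, with a median signal of 13.60 against 13.17 for the duplicated genes. The part of brightness in this contrast was not tested.

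Of the single-copy genes, *RPL3* (YOR063W), whose protein reaches the peptidyl transferase center, differed by 0.00 (adjusted p = 0.975). *RPL5* (YPL131W), for the protein that carries the smallest large subunit rRNA, differed by 0.01 (adjusted p = 0.961), and *RPL10* (YLR075W), whose protein joins late in assembly, by 0.04 (adjusted p = 0.703). *RPL28* and *RPS20* differed by -0.01 and -0.03, and *RPS3*, for a protein at the mRNA entry channel, by -0.08 (adjusted p = 0.335). *RPL25* (YOL127W), for the docking site of nascent chain factors, differed by -0.13 (adjusted p = 0.204). In no comparison was any of these 7 genes called.

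*RPL40A*, *RPL40B* and *RPS31* encode fusions of ubiquitin with a ribosomal protein, from which the cell draws part of its ubiquitin. *RPL40B* (YKR094C) was lower in untreated *sus1*Δ cells by 0.28 (SE 0.0800, adjusted p = 0.0305), with 12.81, 12.72 and 12.95 in WT and 12.57, 12.45 and 12.63 in the mutant. Its groups did not overlap. *RPL40A* and *RPS31* differed by -0.10 (adjusted p = 0.322) and -0.12 (adjusted p = 0.241).

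Differences followed the brightness of the probe set. Among the dimmest 32 members 17 were called lower in untreated *sus1*Δ cells, with a median of -0.28, whereas among the brightest 32 members 0 were called, with a median of -0.04. The 32 next dimmest held 6 called genes and the 31 after them 5. Across the 127 genes, which share the arrays and are not replicates, the mean signal and the difference had a Spearman correlation of 0.634 and a Pearson correlation of 0.627. Over the other genes the Spearman correlation had the opposite sign, at -0.309. The part of signal range, probe design and near-identical copies in this relation was not tested.

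**Figure D4:**
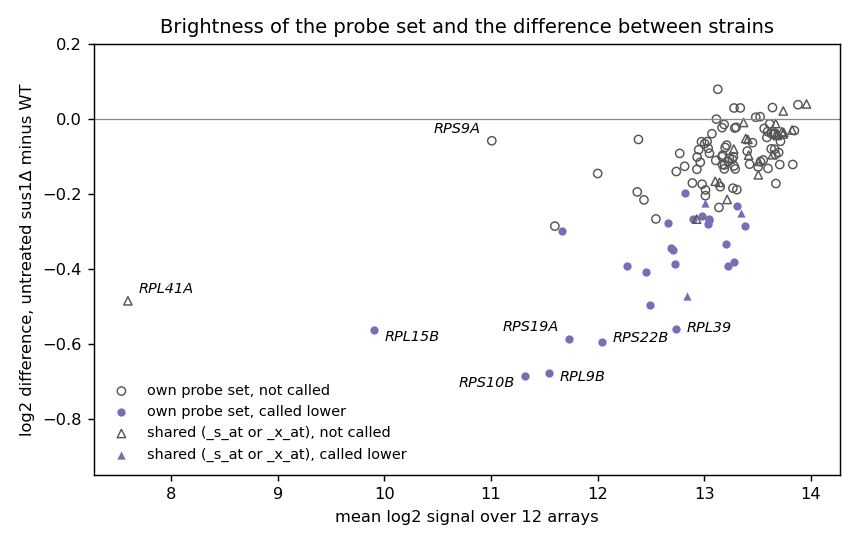
Difference between untreated *sus1*Δ and WT cells (log2, vertical axis) against the mean log2 signal over 12 arrays (horizontal axis) for the 127 members, with filled symbols for genes called lower and triangles for probe sets that match related transcripts. The 32 brightest members reach no lower than -0.17, and the lowest values belong to *RPS10B* and *RPL9B* at signals under 12.

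Probe sets that match several near-identical transcripts had a median difference of -0.08 between the untreated strains, and those specific to a gene -0.12. The chosen probe set was of the shared kind, marked _s_at or _x_at by the manufacturer, for 25 members, of which 3 were called lower in untreated *sus1*Δ cells, against 25 of the 102 members with a probe set of their own. For 20 members both kinds were on the array. In the untreated strain comparison 3 of these 20 were called lower by both probe sets, 7 by the specific one only, 1 by the shared one only and 9 by neither, with p-values adjusted over all named probe sets.

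The widest disagreement was that of *RPL18B* (YNL301C). Its shared probe set, chosen as the brighter, differed by -0.10 (adjusted p = 0.357) between the untreated strains, and its specific probe set by -0.84 (SE 0.184, adjusted p = 0.00912). *RPS8A* gave -0.04 (adjusted p = 0.666) with the shared and -0.47 (adjusted p = 0.0215) with the specific probe set, and *RPL14B* gave -0.04 and -0.39 (adjusted p = 0.0327). These 3 genes were singled out after their values were seen. With only specific probe sets 33 members were called lower in untreated *sus1*Δ cells, 27 of the 28 reported genes among them. Members that have only a shared probe set were left out of this count, so its base is smaller. No share of all genes is given for this setting, and the count shows only how far the calls depend on the probe sets.

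In CR-treated cells 12 of the 127 genes were lower in *sus1*Δ than in WT (9.45%) and 0 were higher, while 10.9% of all genes were called lower and 16.8% higher. The share of members called lower was thus near that of all genes. They were 8 large and 4 small subunit genes, with a median difference of -0.07 for either subunit against +0.03 for all genes. All 12 were among the 28 genes lower in untreated cells, the whole of the shorter and 42.9% of the longer list, from arrays of the same cultures. None reached a 2-fold ratio, beside 0.22% lower and 2.35% higher of all genes. At an unadjusted p under 0.05, 20 members (15.7%) were lower and 0 higher, and the share lower was again near that of all genes, 16.7% lower and 23.5% higher.

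*RPL15B* stood lowest in CR-treated *sus1*Δ cells. It read 10.02, 10.32 and 10.20 in WT and 9.69, 9.66 and 9.68 in *sus1*Δ cells, a difference of -0.50 (SE 0.0966, adjusted p = 0.00336) or a ratio of 0.705. *RPL13A* followed with 12.53, 12.64 and 12.63 against 12.20, 12.13 and 12.33, a difference of -0.38 (adjusted p = 0.00816). For both genes the 3 mutant arrays lay below the 3 WT arrays. *RPL9B* differed by -0.38 (SE 0.111, adjusted p = 0.0273) and *RPS22B* by -0.35 (SE 0.0779, adjusted p = 0.00697). *RPS19A* had 11.58, 11.84 and 11.72 in WT and 11.63, 11.68 and 11.58 in *sus1*Δ cells, and these values overlapped.

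Treatment with CR asks how the cells respond to cell wall stress. In WT cells 6 of the 127 genes were lower after CR (4.72%) and 0 were higher, below the 9.01% of all genes called lower and the 9.4% called higher. The 6 genes were 3 of the large and 3 of the small subunit. In all, 109 members (85.8%) had a difference below 0, against 54.2% of all genes, and the median was -0.07 against -0.02 for all genes. A 2-fold ratio was reached by 0 members, beside 0.11% lower and 1.58% higher of all genes. In 28 members (22.0%) the 3 CR arrays lay below the 3 untreated arrays, 12 of the large and 16 of the small subunit, which held for 14.7% of all genes.

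*RPL22B* (YFL034C-A) encodes a large subunit protein that represses the splicing of its own transcript. It read 12.04, 11.68 and 11.79 without and 11.58, 11.25 and 11.54 with CR, a difference of -0.38 (SE 0.109, adjusted p = 0.0295) or a ratio of 0.766. *RPS10B*, given above, fell by 0.33 (SE 0.0876, adjusted p = 0.0234). *RPS27A* (YKL156W), for a zinc-binding protein of the small subunit, read 12.98, 12.94 and 12.96 without and 12.69, 12.56 and 12.82 with CR, a difference of -0.27 (SE 0.0777, adjusted p = 0.0309). The remaining 3 were *RPL27B* (-0.28, adjusted p = 0.0462), *RPS22B* (-0.27, adjusted p = 0.0341) and *RPL17B* (-0.21, adjusted p = 0.0381). The treated and untreated arrays of each of the 6 genes did not overlap. The count again depended on the choice of probe set. The specific probe set of *RPS11B*, dimmer than its shared one and not used, differed by -0.31 (adjusted p = 0.00634 over all named probe sets). The shared one differed by 0.03 (adjusted p = 0.800). Of the 20 members with both kinds, only *RPS10B* and *RPS11B* were called lower here, by the specific probe set alone.

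The 6 calls were sensitive to the model. With the culture as a random block, which pairs the treated and untreated parts of a culture, 19 members were called lower, beside 16.4% of all genes, and with the culture as a fixed block 8, beside 15.0%. Both blocked fits kept the 6 genes. When single arrays were left out the count was 1 to 7, and 0 of the 6 genes kept its call whichever array was left out. Within culture 1 the median change of the members was -0.11, within cultures 2 and 3 it was -0.04, and 118, 84 and 77 members had a value below 0. These were 92.9%, 66.1% and 60.6% of the members, beside 47.0%, 50.6% and 61.1% of all genes, so that culture 3 was at the share of all genes. The same changes over all genes were 0.02, -0.00 and -0.09 in cultures 1, 2 and 3.

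In *sus1*Δ cells 0 of the 127 genes were called lower or higher after CR, by limma at an adjusted p and also at an unadjusted p under 0.05, where the methods' t-test without adjustment gave 5 lower. Over all genes 0.147% were called lower and 1.39% higher, with 0.0% and 0.496% at a 2-fold ratio. Differences ranged from -0.18 for *RPS28B* (YLR264W) to 0.18 for *RPL41A*, with a median of -0.01, which was 0.01 without untreated replicate 3. *RPS28B* read 12.51, 12.39 and 12.46 without and 12.19, 12.35 and 12.26 with CR (adjusted p = 0.505), and these groups did not overlap. In 10 members (7.87%) the CR arrays all lay below the untreated ones, against 16.9% of all genes. The medians within the 3 *sus1*Δ cultures were -0.02, 0.03 and -0.05, which do not share a direction.

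Whether the strains respond differently to CR was tested as an interaction. None of the 127 genes passed (0 lower and 0 higher, beside 0.0734% of all genes lower and 0.0% higher), and 5 members (3.94%) had an unadjusted p under 0.05, all with a positive value, a share near the 3.4% of all genes with a positive and the 5.23% with a negative value. A positive value means that the change with CR was less negative or more positive in *sus1*Δ than in WT cells. The largest were *RPS19A* at 0.51 (SE 0.184, unadjusted p = 0.0178, adjusted p = 0.431) and *RPL41A* at 0.39 (adjusted p = 0.750). The lowest were *RPL13B* at -0.08 (adjusted p = 0.916) and *RPL43A* at -0.07 (adjusted p = 0.941). The median was 0.06 over the members and -0.00 over all genes. The CR response in WT cells, the strain comparison without CR and the interaction share the untreated WT arrays.

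The median signals of large and small subunit genes moved by similar amounts. The median of the large minus that of the small subunit was -0.11 ± 0.0228 (SD, n = 3) in untreated WT, -0.08 ± 0.0254 in CR-treated WT, -0.08 ± 0.0354 in untreated *sus1*Δ and -0.09 ± 0.0460 in CR-treated *sus1*Δ cells. These values differed by less than 2 of their SDs.

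Paralogs allowed a comparison within each array, because the A minus B value cancels what an array does to both. Levels of different probe sets were not compared, only their changes. For 50 pairs both copies had a probe set. In untreated *sus1*Δ against WT cells both copies were called lower in 4 pairs, *RPL17*, *RPL20*, *RPS1* and *RPS10*, the A copy alone in 8, the B copy alone in 10 and neither in 28. The call of *RPL20B* came from its shared probe set, which can bind related transcripts. The specific probe set of *RPL20B* differed by -0.25 and was not called (adjusted p = 0.145 over all named probe sets). The A copy had the lower value in 26 pairs and the B copy in 24, so neither letter was favored. In 13 pairs the changes of the copies differed by more than 0.2.

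The A minus B values of the groups did not overlap for 23 of the 50 pairs (46.0%) between the untreated strains. The same held for 12 pairs (24.0%) between the CR-treated strains, 14 (28.0%) for CR in WT and 9 (18.0%) for CR in *sus1*Δ cells. Among all genes, the signals of the untreated strains were apart for 16.4% as lower and for 25.3% as higher. Between the CR-treated strains these shares were 19.3% and 26.0%. For CR they were 14.7% and 12.8% in WT and 16.9% and 11.2% in *sus1*Δ cells. Beside these shares, the counts of pairs do not show a separation particular to paralogs. The copy with the dimmer probe set had the lower difference in 34 of the 50 pairs in the untreated strain comparison and in 36 for CR in WT cells, but in 24 between the CR-treated strains.

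In the *RPL9* pair A minus B was 1.36, 1.15 and 1.19 in untreated WT and 1.81, 1.92 and 1.72 in untreated *sus1*Δ cells, a shift of 0.59. *RPL9A* itself differed by -0.09 (adjusted p = 0.363), so the shift came with the lower value of *RPL9B*. After CR the values were 1.49, 1.05 and 1.34 in WT and 1.70, 1.58 and 1.76 in *sus1*Δ cells, again without overlap. *RPL13* behaved in the reverse sense, with the A copy lower. Its A minus B was -0.44, -0.32 and -0.37 in untreated WT and -0.95, -0.86 and -0.74 in untreated *sus1*Δ cells, and *RPL13B* differed by -0.02 (adjusted p = 0.818).

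In the *RPL15* pair the shift was 0.46 without and 0.52 with CR, the largest with CR, and *RPL15A* differed by -0.11 (adjusted p = 0.357) and 0.02 (adjusted p = 0.880). The *RPL34* pair shifted by -0.33 between the CR-treated strains, where *RPL34A* differed by -0.30 (adjusted p = 0.0621) and *RPL34B* by 0.03. The groups of the *RPL34* pair did not overlap, although neither copy was called there.

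The *RPS19* pair had the largest shift with CR in WT cells. Its A minus B was -1.30, -1.26 and -1.52 without and -1.85, -1.66 and -1.88 with CR, while it was -1.78, -2.14 and -1.63 in untreated and -1.69, -1.62 and -1.86 in CR-treated *sus1*Δ cells. The untreated WT arrays thus stood apart from the other 3 groups. The probe set of *RPS19B* is of the shared kind. With its specific probe set the shift with CR in WT was -0.32 and that between the untreated strains -0.30, and in both the groups overlapped.

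With CR in WT cells the *RPL22* pair shifted by 0.30 and the *RPS27* pair by -0.25. The A minus B values with and without CR overlapped for *RPL22* and did not overlap for *RPS27*. *RPL22A* differed by -0.08 (adjusted p = 0.378) and *RPS27B* by -0.03 (adjusted p = 0.835), against the calls of *RPL22B* and *RPS27A*. In *sus1*Δ cells no pair shifted by more than 0.2 with CR. The *RPS28* pair shifted by 0.18, without overlap of the groups, and the *RPL9* pair by -0.14, with overlap.

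**Figure D5:**
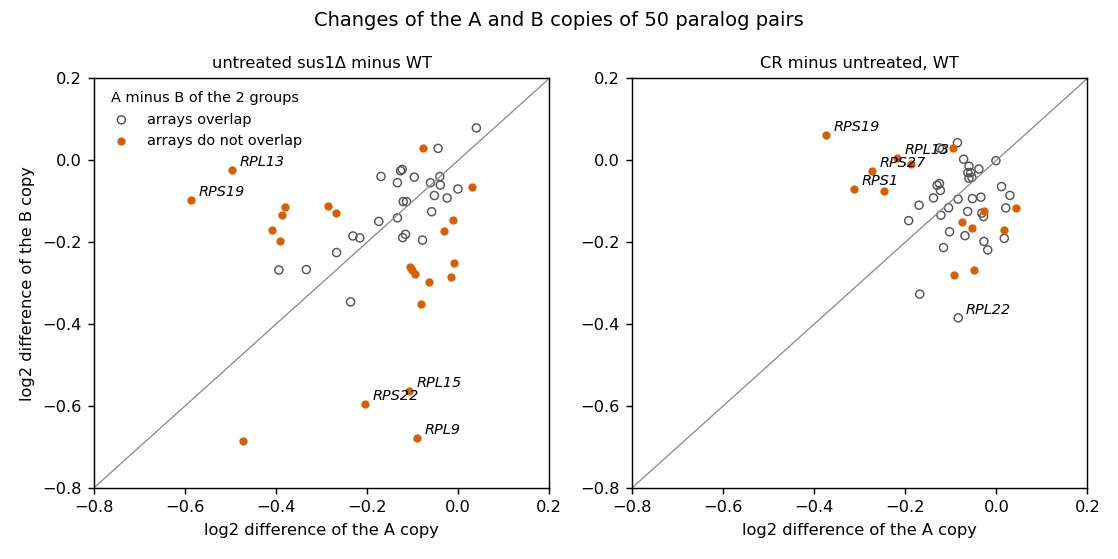
Log2 difference of the B copy (vertical axis) against that of the A copy (horizontal axis) for 50 paralog pairs, left for untreated *sus1*Δ minus WT cells and right for CR minus untreated WT cells, with filled points where the A minus B values of the groups did not overlap and a line where both copies change equally. *RPL9*, *RPL15* and *RPS22* lie below the line on the left, with a lower B copy, and *RPS19* and *RPL13* above it.

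Members next to each other in the R64 annotation did not always move together. Of the 9 neighboring pairs, *RPL13A* lies between *RPS16B* and *RPP1A*, and the 3 genes differed by -0.50, -0.13 and -0.00 between the untreated strains. *RPL39* and *RPS22A*, which are transcribed away from each other, differed by -0.56 and -0.20, and *RPL24A* and *RPL30* by -0.28 and -0.12.

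Among 12 transcription factors of ribosomal protein genes, 3 were higher and 0 lower in untreated *sus1*Δ than in WT cells, with a median of 0.14 against 0.03 over all genes, of which 14.3% were higher and 7.08% lower. *FHL1*, for the forkhead-like factor that sits at most of these promoters, read 7.31, 7.74 and 8.15 in WT and 8.72, 8.92 and 8.68 in *sus1*Δ cells, a difference of 1.04 (SE 0.162, adjusted p = 0.00146). *HMO1*, for a high mobility group protein, was higher by 0.31 (adjusted p = 0.0149). *CRF1*, for a corepressor that competes with Ifh1, read 3.81 to 4.19 in WT and 5.32 to 5.74 in *sus1*Δ cells. It lay below the limit of the dimmest 5% on the 3 WT arrays and on 2 of the 3 *sus1*Δ arrays, and that limit is itself higher on the *sus1*Δ arrays, so its difference of 1.51 (adjusted p = 0.000544) cannot be told apart from the shift of the floor. Without *CRF1* 2 factors were called higher.

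*IFH1* and *SFP1* differed by 0.12 (adjusted p = 0.400) and 0.45 (adjusted p = 0.184). In CR-treated cells 6 of the 12, or 5 without *CRF1*, were higher in the mutant, beside 16.8% of all genes, with *RAP1* at 0.31 (adjusted p = 0.00535) and *GCR1* at 0.69 (adjusted p = 0.0220) beside *FHL1*, *HMO1*, *CRF1* and *IFH1*. With CR in WT cells *RAP1* fell by 0.26 (adjusted p = 0.0165) and was the only one called. This was 8.33% of the list, near the 9.01% of all genes called lower.

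Ribosomal proteins are escorted to the nucleus and the nascent subunits by dedicated chaperones. Of 16 such genes measured, 8 were lower and 0 higher after CR in WT cells, beside 9.01% and 9.4% of all genes, with a median of -0.37 against -0.02 over all genes. *SYO1*, which imports Rpl5 with Rpl11, fell by 0.96 (adjusted p = 0.000377), and *ARX1*, an export factor of the large subunit, by 0.51 (adjusted p = 0.0286). The clients of Syo1 changed little in the same comparison, with -0.02 for *RPL5*, -0.06 for *RPL11A* and -0.03 for *RPL11B*. The value of *RPL11B* is from a shared probe set. Its specific probe set differed by -0.12 and was not called (adjusted p = 0.201 over all named probe sets).

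In CR-treated cells 8 of the 16 chaperone genes were higher in *sus1*Δ than in WT, beside 16.8% of all genes, among them *SYO1* by 0.88 (adjusted p = 0.000558) and *LTV1*, for an assembly factor of the small subunit, by 0.80 (adjusted p = 0.00510). In untreated cells only *LTV1* was called, at 0.74 (adjusted p = 0.00983), or 6.25% of the list beside 14.3% of all genes higher. *SQT1*, for the chaperone of Rpl10, was higher in CR-treated *sus1*Δ cells by 0.43 (adjusted p = 0.0240), where *RPL10* itself differed by 0.03.

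Signals from nutrients reach these genes through TORC1 and protein kinase A, and 19 of 20 genes listed for these pathways were measured, with medians of -0.01 for CR in WT cells and 0.00 between the untreated strains. With CR in WT cells *PDE1*, which degrades cyclic AMP, rose by 1.00 (adjusted p = 4.25e-05) and *RAS1* fell by 0.69 (adjusted p = 0.000604), the only calls. Either call was 5.26% of the genes measured, beside 9.4% of all genes higher and 9.01% lower. *RIM15*, a kinase repressed by both pathways, was higher in untreated *sus1*Δ cells by 0.59 (adjusted p = 0.00172). It was the only call there (5.26%, beside 14.3% of all genes higher). In CR-treated cells 1 was higher (5.26%) and 3 were lower (15.8%), beside 16.8% and 10.9% of all genes.

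Of 18 genes of NuA4 and Rpd3L, complexes that acetylate and deacetylate histones at ribosomal protein genes, 4 were higher and 2 lower in the mutant both without and with CR, with medians of 0.10 and 0.06. These counts are 22.2% and 11.1% of the list, beside 14.3% and 7.08% of all genes without CR and 16.8% and 10.9% with CR. *SDS3*, for an Rpd3L subunit, was higher by 1.80 (adjusted p = 1.98e-05) and *TRA1*, for a subunit that NuA4 shares with SAGA, by 0.56 (adjusted p = 0.0153) in untreated cells. With CR in WT cells 1 of the 18 was lower (5.56%, beside 9.01% of all genes) and 0 were higher.

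Of 42 splicing genes, listed because many ribosomal protein genes hold introns, 6 were higher (14.3%) and 3 lower (7.14%) in untreated *sus1*Δ cells, with a median of 0.01. These shares were those of all genes, 14.3% and 7.08%. *PRP18* was higher by 1.12 (adjusted p = 0.000252) and *PRP9* by 0.49 (adjusted p = 0.00123). With CR in WT cells 1 was higher and 6 were lower (14.3%, beside 9.01% of all genes), led by *SME1*, for a core protein of the spliceosomal particles, at -0.66 (adjusted p = 0.000379). Between the CR-treated strains 6 were higher (14.3%) and 0 lower, beside 16.8% and 10.9% of all genes.

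Of 26 initiation factor genes 1 was higher (3.85%) and 5 were lower (19.2%) in untreated *sus1*Δ cells, beside 14.3% and 7.08% of all genes, led by *GCD7* (-0.56, adjusted p = 0.00310) and *SUI1* (-0.48, adjusted p = 0.00325), with a median of -0.10. After CR in WT cells 2 were lower (7.69%, beside 9.01% of all genes), and between the CR-treated strains 3 were higher and 3 lower (11.5% each, beside 16.8% and 10.9%). Of 10 elongation factor genes, with a median of -0.00, *ANB1*, the copy of the eIF5A gene that is used without oxygen, was higher by 0.90 (adjusted p = 0.000372) and *HEF3* by 0.64 (adjusted p = 0.0200) in untreated *sus1*Δ cells, and both were also higher with CR. *ANB1* was the only one called for CR in WT cells, at -0.65 (adjusted p = 0.00203). In either strain comparison 2 of the 10 were thus higher, beside 14.3% of all genes without CR and 16.8% with CR. With CR in WT cells 1 of the 10 was lower, beside 9.01% of all genes. For so short a list these counts lie near the shares of all genes.

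Of 11 genes for factors that meet the nascent chain at the ribosome, 2 were lower in untreated *sus1*Δ cells, *ARD1* (-0.28, adjusted p = 0.0252) and *EGD2* (-0.27, adjusted p = 0.0171), with a median of -0.11, or 18.2% of the list beside 7.08% of all genes. Between the CR-treated strains 2 were higher (18.2%) and 1 was lower (9.09%), and with CR in WT cells 1 was lower, shares near those of all genes. With CR in *sus1*Δ cells 0 genes of these 8 lists were called.

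The count for untreated cells depended on single arrays. It was 13 without replicate 2 of untreated *sus1*Δ and 15 without replicate 1 of either untreated strain, and 13 of the 28 genes were called whichever array was left out, *RPS10B*, *RPL9B*, *RPS22B*, *RPS19A*, *RPL15B* and *RPL13A* among them. Without replicate 1 or 3 of CR-treated *sus1*Δ cells 4 members were called between the CR-treated strains and without replicate 3 of CR-treated WT cells 7, and *RPL13A*, *RPL15B* and *RPS22B* were called whichever array was left out. When the arrays were quantile normalized again over the tested genes, 19 members were lower in untreated *sus1*Δ cells, 18 of the 28 among them, beside 9.67% of all genes, and the median was -0.03. In that setting 7 members were lower and 1 was higher between the CR-treated strains, beside 15.0% and 13.5% of all genes, and 3 were lower with CR in WT cells, beside 9.14%.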

How the data were processed

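Transcripts were measured on 12 GeneChip Yeast Genome 2.0 arrays, 3 for each of 4 groups (WT and *sus1*Δ, untreated or with CR). The authors made the deposited log2 signals from the scanned arrays with RMA, which corrects background, applies quantile normalization, here with an array set that is not given in the sources used here, and summarizes probes. No genome build is named, and only gene names and neighbors were taken from R64. Of 5739 probe sets, 5498 name 1 gene, 0 several and 241 none, and for 47 genes with several the brightest was used, which left 49 out and gave 5449 genes. All 5449 were found in R64.

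In R 4.3.3, limma 3.58.1 fitted group means to all 12 arrays (two-sided, Benjamini-Hochberg over all genes, called at adjusted p under 0.05). The methods' ratio limits of 2 and 0.5 gave a further count. Samples were grouped by strain and treatment from the titles. The number of arrays limits the precision, and the WT arrays vary more. The methods call them independent biological samples.

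Arrays of 1 strain with the same number were taken as parts of 1 culture, as the methods state that cultures were divided. Their deviations from the group means correlated by 0.247 to 0.716 in 6 pairs, against -0.595 to -0.00134 between numbers of a strain. The deviations within a group sum to 0, so the values between numbers of a strain are not independent of those for the same number. Between the strains the correlations were -0.0305 to 0.193 for the same number and -0.149 to 0.16 for other numbers.

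The members and lists were chosen with earlier results of these data known. Named members were, by rule, the 4 largest called differences in each direction and comparison, the 2 largest interactions in each direction, the stalk, ubiquitin fusion and selected single-copy genes, the dimmest 3, the brightest, and the 3 pairs with the largest shifts, of which 1 is not reported here. Named regulators were *RAP1*, *FHL1*, *IFH1*, *CRF1*, *SFP1*, *HMO1* and the 2 largest called changes of each other list. Other members and regulators named were chosen after their values were seen. The steps were tested on simulated data.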

Additional observations from a re-analysis of the deposited data

How the results depend on the processing

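Of 480 values of counts of members, subunit differences and paralog shifts under 29 alternative settings, 439 kept within 1.5 times or 1 SD of the reported value and 41 moved. No named member reversed a called direction, with 4863 values on the same side of the threshold, 34 that passed it only under the alternative and 93 that no longer passed. Counts of members lower are given for CR in WT, the untreated strains and the CR-treated strains, in this order, with 6, 28 and 12 as reported. The methods' t-test gave 17, 50 and 26 without adjustment, with 5 lower for CR in *sus1*Δ and 1 higher between the CR-treated strains, and 1, 6 and 4 with adjustment. An unadjusted p also raised the calls of all genes. By limma it had 12.5% of all genes lower between the untreated and 16.7% between the CR-treated strains. The 2-fold ratio left 0, 0 and 0. Adjusted p under 0.01 gave 0, 12 and 3, and under 0.1 gave 13 for CR in WT, both chosen after seeing the data. Quantile normalization over the tested genes gave 3 and 7 lower for CR in WT and between the CR-treated strains, with 1 higher in the latter (*RPS29A*). A fit of only the groups compared gave 0, 18 and 5. Centring on the other genes gave 2 for CR in WT, array weights 2, and trended robust variances 17, with 20 between the CR-treated strains. With trended robust variances 9.98% and 11.7% of all genes were lower in these comparisons. Where no share of all genes is given, a count shows only how far the calls depend on the setting. The cause was not tested.

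For the pairing, the replicate block by culture gave 19 as a random effect and 8 as a fixed effect for CR in WT, and 25 and 11 as a random effect for the strain comparisons. The block by number gave 6 for CR in WT and 29 between the untreated strains. No other count of members called moved by over 1.5 times with a block.

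With 1 array left out the counts were 1 to 7, 13 to 31 and 4 to 12. For CR in WT the count was 1 without WT replicate 1 of either treatment or CR replicate 2, 2 without untreated *sus1*Δ replicate 3, and 3 without untreated WT replicate 2, untreated *sus1*Δ replicate 1 or any CR-treated *sus1*Δ replicate. For the untreated strains it was 15 without replicate 1 of either strain and 13 without *sus1*Δ replicate 2, and for the CR-treated strains 4 without *sus1*Δ replicate 1 or 3 and 7 without WT replicate 3. With 3 arrays a group, a p that misses the threshold does not show that a gene did not differ.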
